A study of Mus musculus with 24 samples.

Results

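The genes that lie on either side of Pex5 on mouse chromosome 6 were described in kidneys with and without deletion of Pex5 in the renal tubule. Pex5 encodes the receptor that carries most matrix proteins into peroxisomes, the organelles that shorten very long fatty acids and make ether lipids. A floxed gene is one in which sites for the Cre recombinase flank the part to be deleted, and neighbouring genes are inherited together with such an allele. Levels of the neighbours were compared here between mice with and without the deletion. Members were the genes of the GRCm38 build that start within a window of about 4 Mb to either side of Pex5, the start being the lower coordinate, and that came to 1 CPM or more in 1 or more of the kidneys. The first of them, Hdhd5, starts at 120509494 and the last, Pzp, at 128483567. CPM express the reads of a gene relative to all reads counted on genes in that kidney, after scaling for library composition, and do not correct for gene length. Pex5 itself and 3 others (Pex26, Scnn1a and Ndufa9) were left out by the rule, which left 92 members of 16092 genes tested in all.

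Whole kidneys came from 24 adult mice, in the 4 groups Ctrlm, Ctrlf, cKOm and cKOf (6 mice each), where m and f stand for male and female. The cKO mice were Pex5lox/lox/Pax8-rtTA/LC1 mice, in which Pax8-rtTA drives the Cre of the LC1 transgene in renal tubule cells when doxycycline (DOX) is given, and the Ctrl mice were Pex5lox/lox littermates. All mice had the C57BL/6J background and all received DOX for 2 weeks from the age of 8 weeks, with kidneys taken 4 weeks later at 14 weeks of age and at ZT9, 9 hours after light on. Both genotypes thus carried the floxed allele and its neighbourhood. A comparison of them therefore does not measure effects of what is inherited with that allele. Only cKO mice carried the 2 transgenes, so effects of the deletion and of the transgenes cannot be told apart. The samples were whole kidneys, in which fewer cells of a type and less RNA per cell cannot be told apart.

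Reads assigned to genes ranged from 19376152 to 28470831 a kidney. The kidney label was borne out by tubule markers, with a summed level of 8 proximal tubule markers of 8153 to 11160 CPM over the 24 kidneys. Transcripts of hepatocytes were uneven. The summed level of 15 hepatocyte markers was 169 to 1126 CPM in Ctrlm, 161 to 663 in cKOm, 141 to 185 in Ctrlf and 98.9 to 237 in cKOf mice, and no marker was at 0 throughout a group. Alb, which encodes albumin, was at 224 to 662 CPM in Ctrlm 1 to 4 and at 235 CPM in cKOm 4, against at most 60.2 CPM in the other 19 kidneys. The 12 macrophage markers summed to 126 to 209 CPM in Ctrlm, 96.1 to 138 in cKOm, 125 to 290 in Ctrlf and 107 to 155 in cKOf mice, with the highest sum in Ctrlf 1. Of the hepatocyte markers, 4 were lower and 1 was higher in cKOm than in Ctrlm mice, and 13 were higher in Ctrlm than in Ctrlf mice. Between controls, 3 of 4 podocyte, 2 of 3 thick ascending limb, 2 of 3 distal convoluted tubule, 2 of 8 proximal tubule and 1 of 8 endothelium markers were lower, and 2 of 8 proximal tubule markers higher, in Ctrlm mice. Of the other marker lists, 4 of 8 proximal tubule, 1 of 5 collecting duct and 1 of 12 macrophage markers were lower, and 1 of 3 thick ascending limb markers was higher, in cKOm than in Ctrlm mice at an adjusted p under 0.05 (edgeR). None of the tested T and NK cell, endothelium, fibroblast and mesangium, distal convoluted tubule or podocyte markers passed in males. In females, 1 T and NK cell marker and 1 collecting duct marker were lower in cKOf mice, and no other marker passed.

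Pex5 was examined first as a check of the labels. It lies at chr6:124396816-124415067 on the minus strand. Its level was 49.1 to 62.8 CPM in Ctrlm (median 53.3) and 41.8 to 47.3 CPM in cKOm mice (median 43.0), without overlap, for a log2 ratio of -0.31 (SE of the ratio 0.08, edgeR adjusted p = 0.0219). In Ctrlf mice it was 43.0 to 61.7 CPM (median 48.2) and in cKOf mice 38.0 to 48.5 CPM (median 44.1), with a log2 ratio of -0.21 (SE 0.08, adjusted p = 0.177). The interaction of genotype and sex for Pex5 did not pass (-0.10, edgeR adjusted p = 0.754). Reads were counted over the whole gene and all cells of the kidney, so the size of these changes does not measure the share of deleted alleles. The study detected residual full-length Pex5 mRNA and PEX5 protein in cKOf kidneys, and proposes that excision was incomplete there. It saw hardly any peroxisomes in proximal tubules of either cKO group. Sex and extent of the deletion thus cannot be told apart where the sexes are compared.

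The window held 283 annotated genes, of which 187 stayed under 1 CPM in every kidney and 103 had no read at all. The 92 members comprised 83 protein-coding genes and 9 others. Of the members, 29 start below Pex5 and 63 above it. A mean of at least 1 CPM in each group was found for 70 members, and 15 were under 1 CPM on average in each group. The stretch directly below Pex5 held few reads. No member starts between Clec4a2, 1290.4 kb below, and Pex5. All 9 vomeronasal receptor genes of the window, Vmn2r19 to Vmn2r27, which encode pheromone receptors of the vomeronasal organ, lacked reads except for 3 reads of Vmn2r25 in 1 kidney. Cd163, a haemoglobin scavenger receptor of macrophages and the closest gene below Pex5, had at most 17 reads in a kidney.

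Few of the flanking genes differed between cKO and Ctrl mice. In males, 6 of 92 members (6.52%) passed an adjusted p of 0.05, against 9.05% of all tested genes and 10.5% of the other 760 tested genes of chromosome 6. Lpcat3 was the 1 member that was higher in cKOm mice (1.09% of members, against 4.14% of all tested genes). Pzp, Tulp3, M6pr, Bid and Tpi1 were lower (5.43% of members, against 4.9%). The 6 cKOm and 6 Ctrlm kidneys did not overlap for 4 members (4.35%, against 7.38% of all tested genes), namely Pzp, Tulp3, M6pr and Tpi1. In females, 0 members passed in the edgeR test (0.851% of all tested genes passed), in DESeq2 and in limma-voom, 9 members had an unadjusted p under 0.05 (9.78%, against 6.73% of all tested genes), and for 0 members the groups were apart (0.559% of all tested genes were). The median log2 ratio of the members was -0.04 in males, where it was 0.01 over all tested genes, and -0.04 in females, where it was 0.00. The called shares were thus close to or below those of all tested genes in each sex.

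**Figure D1:**
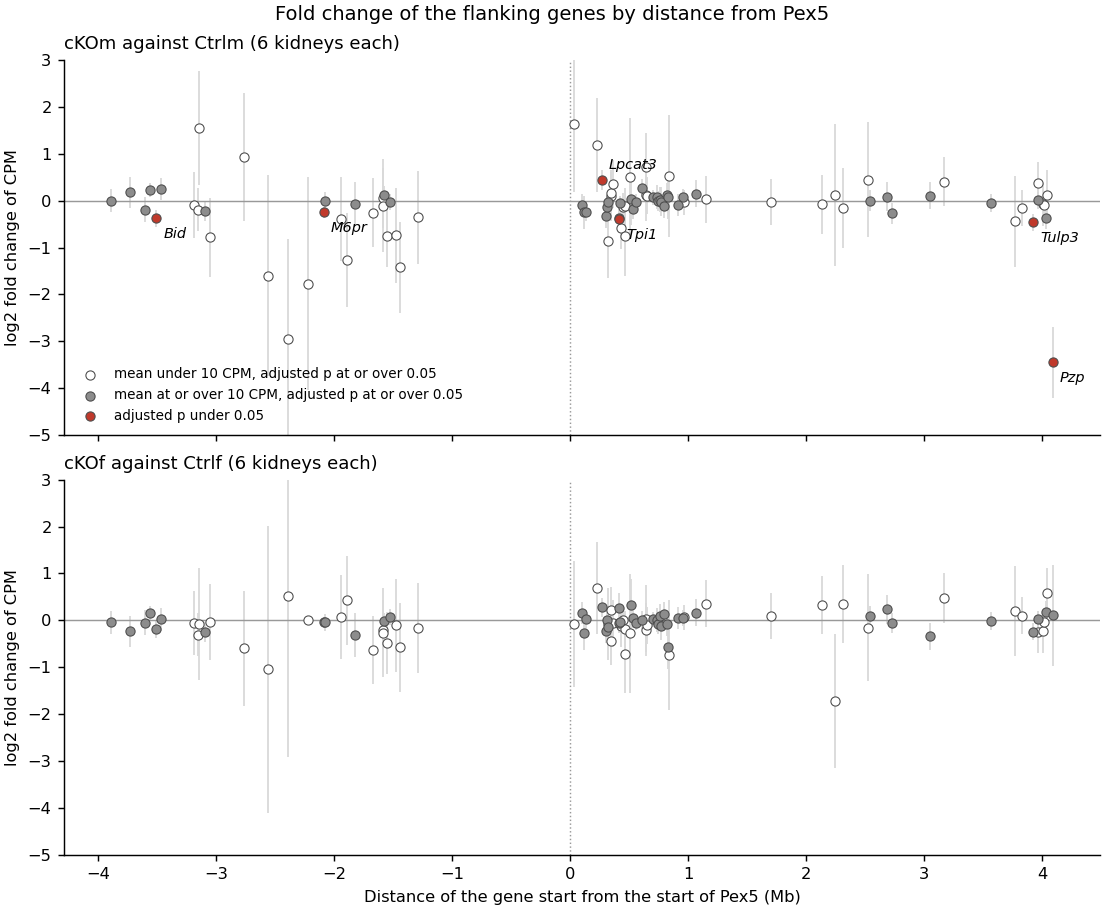
log2 ratio of CPM (vertical axes) of 92 flanking genes against the distance of their start from the start of Pex5 in Mb (horizontal axis), with cKOm against Ctrlm above and cKOf against Ctrlf below. Grey lines are 95% confidence intervals, and those beyond the axis end at its edge. The 6 red points (adjusted p under 0.05) are in males, at distances from 266.2 kb (Lpcat3) to 4086.8 kb (Pzp), and no point is red in females.

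Calls were also counted by distance. Within 0.5 Mb of the start of Pex5 lie 20 members, all above it, of which 2 passed in males (10%), Lpcat3 and Tpi1. Between 0.5 and 1 Mb, 0 of 20 passed, between 1 and 2 Mb 0 of 15, and beyond 2 Mb 4 of 37 (10.8%). In males, 9.05% of all tested genes and 10.5% of the other tested genes of chromosome 6 passed, so the highest shares were close to these. At an unadjusted p under 0.05 in edgeR, there were 9 of 20, 1 of 20, 3 of 15 and 10 of 37 members in these bins, and 25.1% of all tested genes. Over all members the unadjusted count in males was 23 (25%, against 25.1% of all tested genes). The 9 within 0.5 Mb were Clstn3, C1s2 and Lpcat3 with higher levels in cKOm mice, and C1s1, Emg1, Gm15884, Spsb2, Tpi1 and Cdca3 with lower ones. Gm15884 and Cdca3 are named here after their values were seen. In females, 1 of 20 members within 0.5 Mb had an unadjusted p under 0.05 in edgeR, Lpcat3, against 6.73% of all tested genes. These bins hold genes that lie side by side and are not independent, and their difference was not tested.

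The 6 measured genes nearest to Pex5 on each side were followed one by one. Clstn3, which encodes a calsyntenin, a membrane protein known from synapses, starts 33.9 kb above the start of Pex5 on the same strand, so that its transcription runs toward Pex5. Its level was 0 to 0.396 CPM (median 0.196) in Ctrlm and 0.178 to 1.05 CPM (median 0.577) in cKOm mice, which are at most 10 and 23 reads a kidney. In Ctrlf mice it was 0.0953 to 1.56 CPM (median 0.370) and in cKOf mice 0.105 to 0.765 CPM (median 0.536). The groups overlapped in both sexes. The log2 ratio of cKO to Ctrl was 1.63 in males (95% confidence interval 0.19 to 3.07, edgeR adjusted p = 0.229) and -0.07 in females (-1.41 to 1.27, adjusted p = 0.977), so neither passed. At these counts the intervals were wide.

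Next above lies the complement C1r and C1s cluster, which encodes the proteases that start the classical pathway of complement, a chain of plasma proteins. Of its 5 genes, 4 were members, and 0 of 4 passed in either sex. For C1ra the log2 ratio was -0.25 in males and -0.28 in females (adjusted p = 0.532 and 0.454). C1s1 was at 40.8 to 56.0 CPM in Ctrlm (median 45.5) and 33.1 to 47.0 CPM in cKOm mice (median 38.6), with a log2 ratio of -0.23 (adjusted p = 0.224). C1s2 was at 0 to 0.809 CPM in Ctrlm and 0.670 to 1.22 CPM in cKOm mice, with a log2 ratio of 1.19 (95% confidence interval 0.18 to 2.19, adjusted p = 0.203). The copies C1ra and C1rb share 48.0% of the 50-base stretches of C1ra, and C1s1 and C1s2 share 26.9% of those of C1s2, so reads of the pairs may have been dropped or split. C1rl, a relative of C1r, had a log2 ratio of -0.08 in males (adjusted p = 0.802). The 4 genes were not detectably different, with male intervals that reach from -0.59 to 2.19.

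Below Pex5 most of the nearest members are receptors of myeloid cells. Of the 13 genes of this list in the window, 5 were members, and 0 of 5 passed in either sex. Clec4a3, a C-type lectin receptor of dendritic cells and macrophages, was at 0.308 to 2.62 CPM in Ctrlm (median 1.49) and 0.134 to 1.05 CPM in cKOm mice (median 0.420). Its log2 ratio was -1.42 (SE 0.47, edgeR adjusted p = 0.0845), and the groups overlapped. The call depended on the settings, since Clec4a3 passed in males with DESeq2 (adjusted p = 0.038), with adjustment within each sex (adjusted p = 0.0471), with the hepatocyte score as a covariate (-1.90, adjusted p = 0.0364) and without Ctrlm 4 or cKOm 2. C3ar1, the receptor of complement C3a, had a log2 ratio of -0.75 in males and -0.48 in females (adjusted p = 0.231 and 0.511). For Clec4a1 and Clec4a2 the male values were -0.74 and -0.35 (adjusted p = 0.514 and 0.803), and for Ptpn6, a phosphatase of blood cells that is placed above Pex5, -0.03 (adjusted p = 0.946). The median log2 ratio of the 5 genes was -0.74 in males. It was -0.56 for the 12 macrophage markers, none of which is among these 5. With the macrophage score as a covariate the male values were -0.12 for C3ar1, -0.05 for Clec4a1, -0.11 for Clec4a2, -1.16 for Clec4a3 and 0.11 for Ptpn6 (adjusted p = 0.912, 0.978, 0.960, 0.259 and 0.745). Foxj2, a forkhead transcription factor, and Necap1, a protein of clathrin-coated vesicles, lie on either side of C3ar1, and their male values were 0.12 and -0.03 (adjusted p = 0.608 and 0.915).

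**Figure D2:**
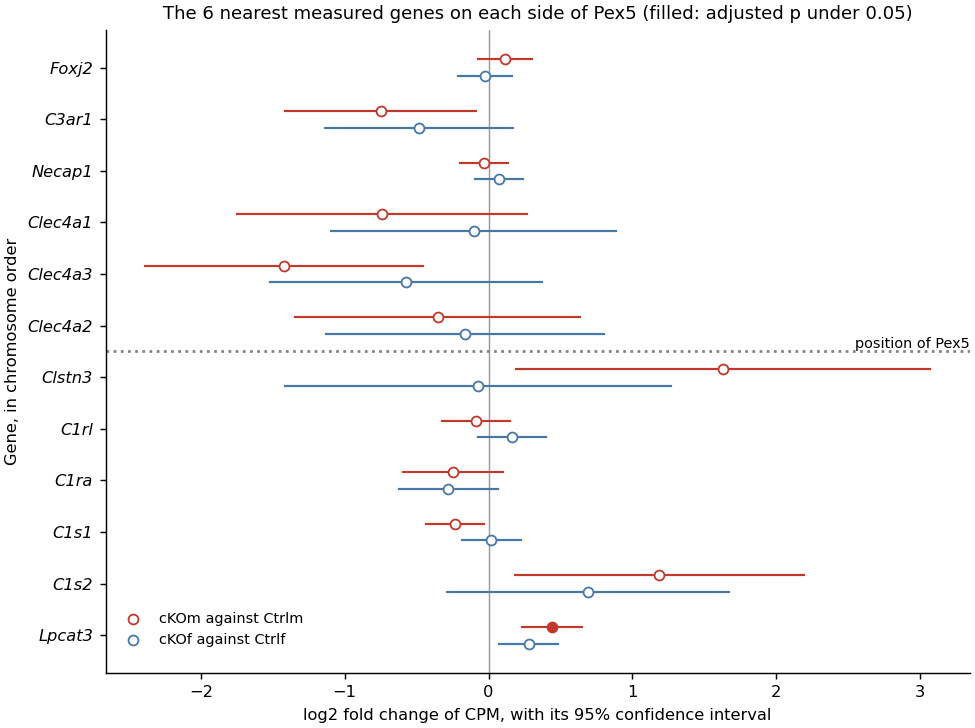
log2 ratio of CPM (horizontal axis) with 95% confidence intervals for the 6 measured genes nearest to Pex5 on each side, in chromosome order (vertical axis), in males (red) and females (blue). Filled points have an adjusted p under 0.05. Lpcat3 in males, at 0.44, is the filled one. The intervals of Clstn3, C1s2 and the Clec4a genes are wide.

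Lpcat3, which places polyunsaturated chains into phospholipids of membranes, starts 266.2 kb above the start of Pex5 and was the sole flanking gene with a called increase. It was at 88.7 to 144 CPM in Ctrlm (median 106) and 138 to 174 CPM in cKOm mice (median 148). The groups overlapped because Ctrlm 6, at 144 CPM, was above the lowest cKOm kidney, and the other 5 cKOm kidneys were above all Ctrlm kidneys. In Ctrlf mice it was at 87.6 to 109 CPM (median 105) and in cKOf mice at 104 to 135 CPM (median 126). The log2 ratio of cKO to Ctrl was 0.44 in males (SE 0.10, edgeR adjusted p = 0.00683) and 0.28 in females (SE 0.10, adjusted p = 0.126). The difference between the sexes did not pass (interaction 0.16, adjusted p = 0.672). With the hepatocyte score as a covariate the male value was 0.35 (adjusted p = 0.124), and without the 5 kidneys of high hepatocyte score (Ctrlm 1 to 4 and cKOm 4) it was 0.38 (adjusted p = 0.215). The median score was 4.90 in Ctrlm, 2.33 in cKOm and 2.33 in Ctrlf mice. Fits with this covariate therefore do not fully separate the score from genotype in males or from sex in controls. Leaving out these 5 kidneys kept Ctrlm 5 and 6 as the only male controls. With the macrophage score as a covariate the female value passed (adjusted p = 0.0495). Of its exon bases, 10.2% lie opposite to exons of Emg1, a ribosome assembly factor, which had a log2 ratio of -0.32 in males (adjusted p = 0.196).

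Tpi1, the triose phosphate isomerase of glycolysis, starts 413.8 kb above the start of Pex5. It was at 393 to 609 CPM in Ctrlm (median 456) and 332 to 386 CPM in cKOm mice (median 353), and every cKOm kidney was below every Ctrlm kidney. In females the medians were 358 CPM in Ctrlf and 331 CPM in cKOf mice. The log2 ratio of cKO to Ctrl was -0.39 in males (SE 0.10, edgeR adjusted p = 0.0128) and -0.06 in females (SE 0.10, adjusted p = 0.831), and the interaction did not pass (adjusted p = 0.271). With the hepatocyte score as a covariate the male value was -0.38 (adjusted p = 0.0692). Of the other 4 members with a role in glycolysis and glucose, 0 passed in either sex. Gapdh, the next enzyme after Tpi1 in glycolysis and a common reference transcript, had a log2 ratio of 0.02 in males (95% confidence interval -0.24 to 0.29) and 0.08 in females (-0.18 to 0.35), although 24.7% of its 50-base stretches also occur in other annotated genes. Tigar, a fructose bisphosphatase, was at 0.09 in males and 0.24 in females (adjusted p = 0.86 and 0.493), and the neuronal enolase Eno2 at 0.36 and -0.06 (adjusted p = 0.536 and 0.95).

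The other 4 called members lie more than 2 Mb from Pex5. Tulp3, which carries receptors into the primary cilium, starts 3924.3 kb above it. Its level was 46.0 to 60.1 CPM in Ctrlm (median 52.7), 32.9 to 44.4 in cKOm (median 37.9), 28.4 to 40.3 in Ctrlf (median 33.1) and 25.8 to 31.8 CPM in cKOf mice (median 28.9). Ctrlm kidneys were above those of each other group. The log2 ratio of cKO to Ctrl was -0.46 in males (SE 0.09, edgeR adjusted p = 0.00149) and -0.24 in females (SE 0.09, adjusted p = 0.149), with no call for the interaction (adjusted p = 0.474). Without the 5 kidneys of high hepatocyte score the male value was -0.28 (adjusted p = 0.339), and with the score as a covariate -0.47 (adjusted p = 0.0157).

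M6pr, a mannose 6-phosphate receptor that takes enzymes to lysosomes, starts 2088.1 kb below Pex5. It was at 245 to 282 CPM in Ctrlm (median 261) and 204 to 238 CPM in cKOm mice (median 222), without overlap. The medians in females were 231 and 223 CPM. The log2 ratio of cKO to Ctrl was -0.25 in males (SE 0.06, edgeR adjusted p = 0.0073) and -0.04 in females (adjusted p = 0.816). Without the 5 kidneys of high hepatocyte score, which left Ctrlm 5 and 6 as male controls, the male value was -0.31 (adjusted p = 0.0542). Bid, a protein of the BCL2 family that acts at mitochondria in cell death, starts 3504.9 kb below Pex5. It was at 38.6 to 51.3 CPM in Ctrlm (median 42.6) and 29.3 to 38.8 CPM in cKOm mice (median 33.6), and the groups overlapped slightly. Its log2 ratio was -0.38 in males (SE 0.09, edgeR adjusted p = 0.0113) and -0.19 in females (adjusted p = 0.311), and the male value was -0.35 with the hepatocyte score as a covariate (adjusted p = 0.0938) and -0.36 without the 5 kidneys (adjusted p = 0.224). Of its exon bases, 17.7% lie opposite to exons of Bcl2l13, a mitochondrial relative, whose log2 ratio was 0.23 in males (adjusted p = 0.0617).

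**Figure D3:**
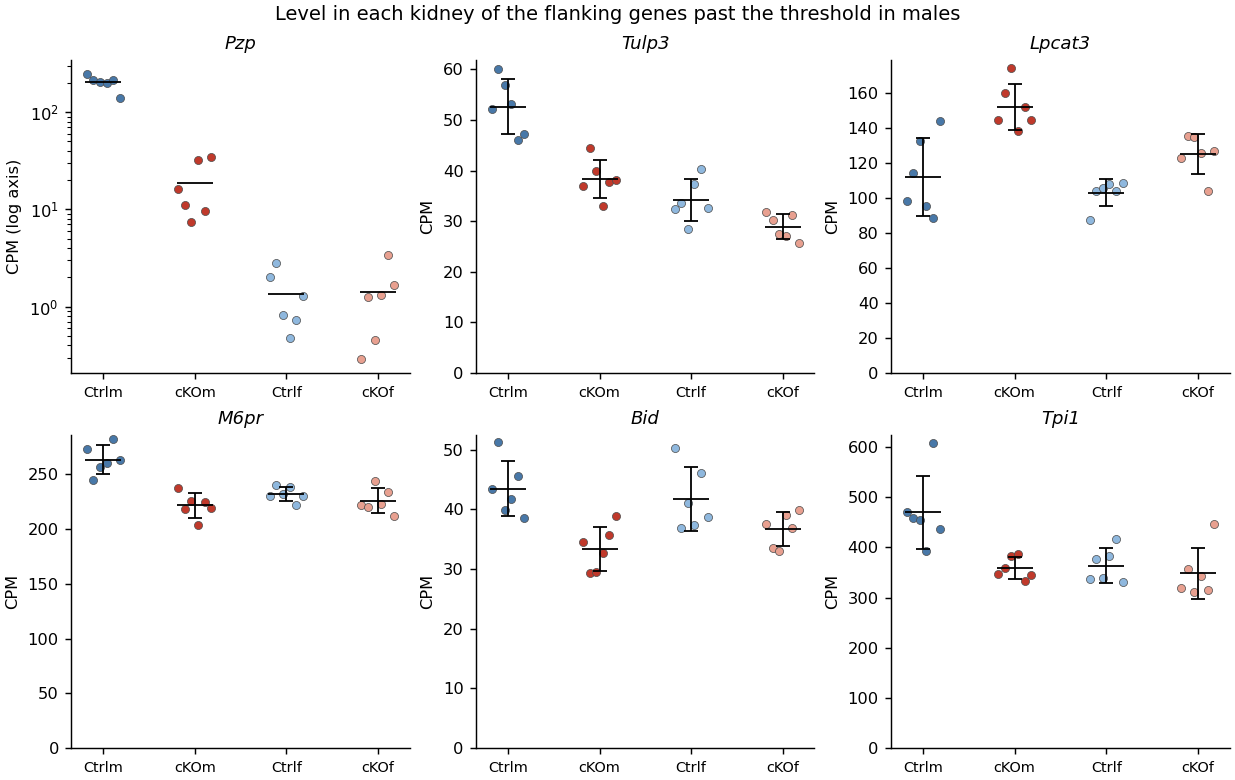
Level in CPM (vertical axes, logarithmic for Pzp) in each of 24 kidneys, by group (horizontal axes, 6 points each), of the 6 flanking genes past the threshold in males. Black lines are means, and bars are SDs, which are left out on the logarithmic axis. For Pzp the order is Ctrlm, cKOm and then both female groups. For Lpcat3 the cKOm kidneys sit at 138 to 174 CPM against 88.7 to 144 in Ctrlm.

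Pzp had the largest change of all members. It encodes pregnancy zone protein, a member of the alpha-2-macroglobulin family of plasma proteins, which trap proteases and are made mainly by the liver. Pzp lies at chr6:128483567-128526720 on the minus strand, and its 5' end is thus just outside the window. Its level was 141 to 245 CPM in Ctrlm (median 209), 7.44 to 34.9 in cKOm (median 13.7), 0.474 to 2.83 in Ctrlf (median 1.06) and 0.292 to 3.43 CPM in cKOf mice (median 1.29). Ctrlm, cKOm and female kidneys formed 3 ranges that did not overlap, and the female groups shared one range. The log2 ratio of cKO to Ctrl was -3.45 in males (SE 0.37, edgeR adjusted p = 3.5e-07), which left 0.0918 of the Ctrlm level, and 0.10 in females (95% confidence interval -0.97 to 1.18, adjusted p = 0.958). The difference between the sexes was -3.55 (SE 0.64, edgeR interaction, adjusted p = 0.00135), where sex and extent of the deletion cannot be told apart. Pzp was the 1 member past the threshold in this test (1.09% of members, against 2.31% of all tested genes). Between controls, Ctrlm mice held 151 times the level of Ctrlf mice (log2 ratio 7.24, SE 0.47, adjusted p = 3.2e-12).

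Since the family is known from the liver, the levels were set beside the hepatocyte markers. Mug1, a murinoglobulin of the same family, was at 9.32, 10.6, 9.98 and 12.3 CPM in Ctrlm 1 to 4 and at 12.8 CPM in cKOm 4. In Ctrlm 5 and 6 it was at 0.782 and 0 CPM, in the other cKOm kidneys at 0 to 1.14 CPM and in females at 0 to 1.00 CPM. These 5 kidneys with high Mug1 were those with high Alb. Pzp was at 214 and 141 CPM in Ctrlm 5 and 6, where Alb was at 24.7 and 15.1 CPM, and at 32.2 CPM in cKOm 4. The highest cKOm level of Pzp was 34.9 CPM in cKOm 6, where Alb was at 29.2 CPM. The male log2 ratio of Pzp was -2.99 with the hepatocyte score as a covariate (adjusted p = 6.8e-06) and -3.51 without the 5 kidneys of high score (adjusted p = 0.000305). For Mug1 the male log2 ratio was -1.60 (adjusted p = 0.505), and without cKOm 4 it was -4.54 (adjusted p = 0.0149). Mug2 had at most 41 reads in a Ctrlm kidney and 6 in a cKOm kidney, and the pseudogene Mug-ps1 at most 37 and 17. Both were not called in males (adjusted p = 0.114 and 0.471). Mug1, Mug2 and Mug-ps1 share 26.5% to 50.5% of their 50-base stretches with other genes, chiefly each other, so their separate counts are uncertain. A2m, alpha-2-macroglobulin, was at 0 to 1.28 CPM in Ctrlm (median 0.495) and 0.366 to 2.23 CPM in cKOm mice (median 1.11), with a log2 ratio of 0.94 (adjusted p = 0.551). Of the 5 family members, 1 was lower and 4 were not called in males, and 0 of 5 passed in females. Mug-ps1 had no read in any female kidney and so could not pass there. Mug2 had at most 2 reads in a Ctrlf and 3 in a cKOf kidney.

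**Figure D4:**
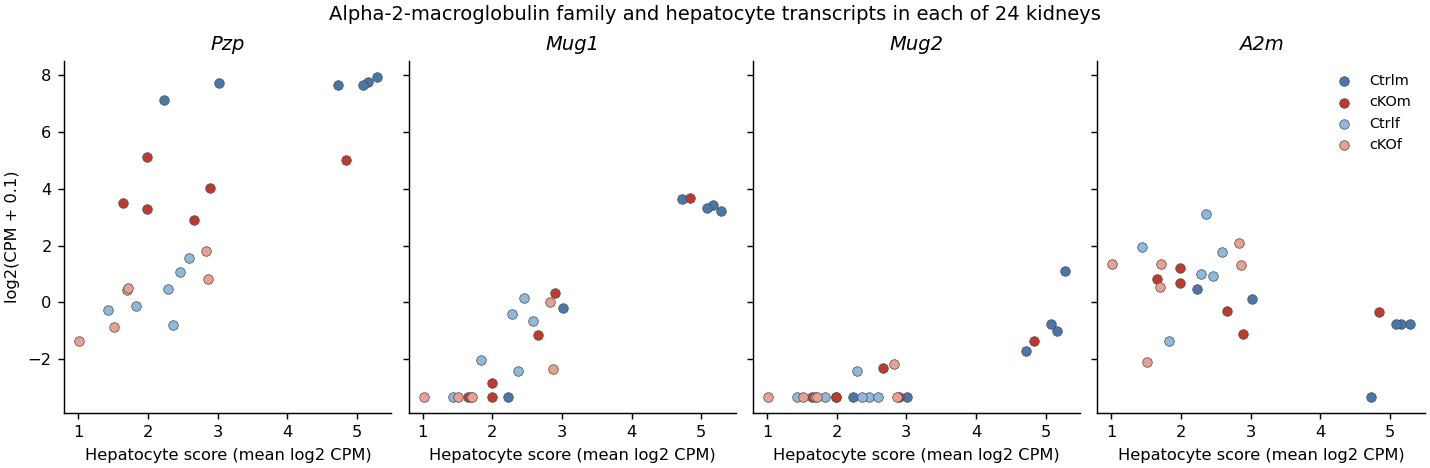
Level of Pzp, Mug1, Mug2 and A2m as log2(CPM + 0.1) (vertical axes) against the hepatocyte score, the mean log2 CPM of 15 markers (horizontal axes), in 24 kidneys coloured by group. Pzp is high in all 6 Ctrlm kidneys, at scores from 2.23 to 5.28. Mug1 is high in the 5 kidneys with a score over 4.

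The promoters of Pzp, Mug1 and Lpcat3 are shown because the first pair belong to 1 family and differed in which kidneys held them, and because Lpcat3 was the called increase nearest to Pex5. RefSeq promoters of GRCm38.p6, from 250 bases before to 50 bases after a gene start, were found for 63 of 92 members (84 promoters). Capitals mark matches on either strand to the letters TTCNNNGAA (a STAT5 consensus), GTTAAT (an arm of the HNF1 site, HNF1 being a factor of liver and proximal tubule), TGTTCT (an arm of the androgen receptor site), AGGTCA (an arm of the sites of other nuclear receptors) and TATAAA (the core promoter box that binds the general transcription machinery). These motifs were chosen with the sex pattern of Pzp known. The sequences are written 5' to 3' on the gene's strand, for chr6:128526671-128526970 (minus strand), chr6:121838291-121838590 (plus strand) and chr6:124662854-124663153 (plus strand).
Pzp: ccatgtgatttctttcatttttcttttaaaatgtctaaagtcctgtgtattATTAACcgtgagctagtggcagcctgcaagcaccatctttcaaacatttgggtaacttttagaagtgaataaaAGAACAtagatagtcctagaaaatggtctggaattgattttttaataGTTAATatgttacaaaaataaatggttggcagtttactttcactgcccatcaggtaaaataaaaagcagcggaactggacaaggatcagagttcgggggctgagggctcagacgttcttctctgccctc
Mug1: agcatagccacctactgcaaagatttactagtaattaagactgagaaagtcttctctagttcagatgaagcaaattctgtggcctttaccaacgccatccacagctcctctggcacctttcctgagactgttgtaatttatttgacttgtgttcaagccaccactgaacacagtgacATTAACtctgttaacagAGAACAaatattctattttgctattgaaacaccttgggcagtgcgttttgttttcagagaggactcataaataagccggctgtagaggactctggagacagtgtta
Lpcat3: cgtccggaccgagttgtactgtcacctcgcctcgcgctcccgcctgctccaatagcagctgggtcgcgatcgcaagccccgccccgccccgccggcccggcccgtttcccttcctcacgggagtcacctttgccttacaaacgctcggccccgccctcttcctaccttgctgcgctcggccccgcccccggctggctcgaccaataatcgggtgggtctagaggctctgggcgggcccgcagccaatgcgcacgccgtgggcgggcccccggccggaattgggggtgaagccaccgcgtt

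The Pzp promoter matched GTTAAT at 2 places and TGTTCT at 1, and that of Mug1 matched each once. No letters of the 5 motifs were found in the Lpcat3 window. GTTAAT occurred in 7.1% of all 32851 promoters and in 10.7% of the members' promoters, and TGTTCT in 19% and 11.9%. For TTCNNNGAA the shares were 8.3% and 7.14%, for AGGTCA 16.3% and 13.1%, and for TATAAA 13.6% and 8.33%. Such matches are common, and the files hold no measurement of binding.

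Controls of the 2 sexes were compared to place the values of males beside those of females. Of 92 members, 14 passed between Ctrlm and Ctrlf mice (15.2%, against 16.8% of all tested genes). The 9 that were higher in Ctrlm mice (9.78%, against 8.71%) were Pzp, Tulp3, M6pr, Tpi1, Spsb2, C1rl, Mug1, Mug2 and Mug-ps1. Of these, Mug2 and Mug-ps1 came to 1 CPM in Ctrlm 1 alone. They were thus members only through the group in which they were higher, and their calls are no independent result. The 5 lower ones (5.43%, against 8.11%) were A2m, Slc6a13, Gpr162, Iffo1 and Tspan9, of which Gpr162, Iffo1 and Tspan9 were picked after their values were seen. This comparison and that of cKOm with Ctrlm mice share the Ctrlm kidneys. The log2 differences between control males and females were 0.62 for Tulp3 (edgeR adjusted p = 7.6e-06), 0.18 for M6pr (adjusted p = 0.0271), 0.37 for Tpi1 (adjusted p = 0.00719) and 0.33 for C1rl (adjusted p = 0.046). With the hepatocyte score as a covariate the values were 0.36 for Tpi1 (adjusted p = 0.0718), 0.22 for M6pr (adjusted p = 0.0578) and 0.37 for C1rl (adjusted p = 0.136). M6pr lost its call in 8 and C1rl in 14 of 34 alternatives.

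Spsb2, an adaptor of a ubiquitin ligase that lies next to Tpi1, was at 14.1 to 28.5 CPM in Ctrlm (median 16.8), 13.6 to 15.8 in cKOm (median 14.3), 7.88 to 12.8 in Ctrlf (median 9.21) and 9.45 to 13.8 CPM in cKOf mice (median 11.2). All Ctrlm kidneys were above all Ctrlf kidneys, with a log2 difference of 0.98 (SE 0.15, edgeR adjusted p = 2.9e-05). Its log2 ratio between genotypes was -0.38 in males and 0.27 in females (adjusted p = 0.191 and 0.432), and the interaction did not pass (adjusted p = 0.139). A2m was lower in Ctrlm mice by a log2 difference of -2.39 (adjusted p = 0.0114). Mug1 and Mug2 were higher by 4.18 and 4.73 (adjusted p = 0.0171 and 0.00786). These calls were lost with DESeq2 (adjusted p = 0.0697 and 0.0954) and limma-voom (adjusted p = 0.220 and 0.0808), and that of A2m with limma-voom (adjusted p = 0.0978). The A2m call was also lost with the hepatocyte score as a covariate and without the 5 kidneys of high hepatocyte score. It was lost as well without the 3 kidneys with the fewest reads outside genes. For Mug-ps1, at 0 in all Ctrlf kidneys, the mean was at least 4.17-fold higher than a floor of 3 counts a kidney (adjusted p = 0.0129), and at least 2.24-fold without Ctrlm 1, which held 1.83 CPM. Without the 5 kidneys of high hepatocyte score, Mug1 and Mug2 were at -0.0005 and -1.82 (adjusted p = 1.00 and 0.715). Slc6a13, a transporter of GABA and taurine, was at 40.5 to 62.2 CPM in Ctrlm and 58.7 to 86.7 CPM in Ctrlf mice, a log2 difference of -0.46 (adjusted p = 0.00237, and 0.159 without the 5 kidneys). Its values between genotypes were -0.21 in males and -0.25 in females (adjusted p = 0.327 and 0.202).

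The remaining groups of members held no call between genotypes other than those given. Of 10 genes of the chromatin and transcription list, Tulp3, placed there although it is best known from the cilium, was lower in males and 9 did not pass, with a median log2 ratio of 0.09. Chd4, a remodeler of chromatin, was at 0.07 in males (95% confidence interval -0.09 to 0.23) and 0.02 in females (-0.14 to 0.18). Zfp384, a zinc finger protein, was at 0.27 (adjusted p = 0.108) and Mlf2 at -0.18 (adjusted p = 0.421) in males. Of 4 mitochondrial members, Bid was lower and 3 did not pass, among them Phb2, a prohibitin, at -0.13 and Mrpl51, a ribosomal protein of the organelle, at -0.12 in males (adjusted p = 0.586 and 0.715). Of 9 members of protein turnover, trafficking and chaperones, M6pr was lower and 8 did not pass. Fkbp4, a chaperone of steroid receptors, was at 121.2 to 206 CPM in Ctrlm (median 148) and 118 to 141 CPM in cKOm mice (median 120). Its log2 ratio was -0.36 in males (adjusted p = 0.0729) and 0.17 in females (adjusted p = 0.517), and its interaction was -0.54 (adjusted p = 0.0896). Usp5, a deubiquitinase, and Cops7a, a subunit of the COP9 signalosome, were at -0.05 and -0.02 in males (adjusted p = 0.838 and 0.952).

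Among 4 solute carriers and proton pump members, 0 passed. Atp6v1e1, a subunit of the proton pump of lysosomes and intercalated cells, was at 81.5 to 127 CPM in Ctrlm and 77.9 to 91.5 CPM in cKOm mice (log2 ratio -0.19, adjusted p = 0.522), and Slc6a12, a betaine transporter of the medulla, was at -0.78 (adjusted p = 0.368). Slc2a3, a glucose transporter, was at -0.26 in males and -0.63 in females (adjusted p = 0.810 and 0.406). Of 7 members of the cell cycle and DNA repair, 0 passed, with Ccnd2, a cyclin, at -0.27 in males (adjusted p = 0.176), Ncapd2, a condensin subunit, at -0.02 and Rhno1 at 0.00 (adjusted p = 0.976 and 0.990). Parp11 was at 0.11 in males and -0.34 in females (adjusted p = 0.792 and 0.208). Of 3 ribosome and nucleolus members, 0 passed, with Nop2, which modifies ribosomal RNA, at 0.08 in males (adjusted p = 0.847). The 3 voltage-gated potassium channels Kcna1, Kcna5 and Kcna6 did not pass in either sex. Kcna1 was at 0.0967 to 1.56 CPM in Ctrlf and 0 to 0.487 CPM in cKOf mice, with a log2 ratio of -1.72 in females (95% confidence interval -3.15 to -0.28, adjusted p = 0.194).

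Of 4 endothelium and membrane members, 0 passed, with Cd9, a tetraspanin, at 0.15 in males, Vwf, the von Willebrand factor of endothelium, at 0.03 and Mical3 at 0.25 (adjusted p = 0.690, 0.973 and 0.268). The 1 measured growth factor, Ntf3, a neurotrophin, was at -0.03 (adjusted p = 0.978), and Fgf23, a hormone of bone, had no read. Of 6 lymphocyte and tumour necrosis factor receptor members, 0 passed in either sex. Ltbr and Tnfrsf1a, receptors of lymphotoxin and of tumour necrosis factor, were at -0.10 and 0.09 in males (adjusted p = 0.752 and 0.677), and Cd4, a coreceptor of T cells, at -0.75 (adjusted p = 0.407). Tapbpl, which edits peptides on class I molecules, was at 41.2 CPM in Ctrlf 1 and at most 14.7 CPM in the other Ctrlf kidneys, with a female log2 ratio of -0.57 (adjusted p = 0.197). Ctrlf 1 also held the highest summed macrophage and T and NK cell markers, and with the macrophage score as a covariate the female value was -0.19 (adjusted p = 0.790). The 23 members on no list held 0 calls between genotypes, with male log2 ratios from -1.26 to 1.55 and female ones from -0.44 to 0.58.

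For the 46 members with a mean of at least 10 CPM, the median SE of the log2 ratio was 0.11 in each sex, and their male values reached from -3.45 (Pzp) to 0.44 (Lpcat3). Over all members it was 0.19 in males and 0.18 in females. The floor of 3 counts covers counting error only.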

How the data were processed

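RNA of whole kidneys was sequenced from 24 mice, 6 per group, with groups taken from the labels. Per the submitters' processing notes and the methods of the study, reads were trimmed with cutadapt 1.8, aligned to GRCm38 with STAR 2.5.3a and counted per gene with HTSeq 0.9.1 on Ensembl annotation. The authors deposited raw counts, 1 file per kidney with 55335 genes, without normalization. Libraries were stranded, but the strand setting of the counting was not given in the sources used here, so genes with exons on both strands are uncertain. The 5 closing lines of each file were set aside (6.41% to 9.25% of uniquely aligned reads lay outside genes and 1.01% to 1.30% were ambiguous). Names and positions came from GENCODE M21 (GRCm38), which held 55154 of the genes.

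Genes that came to 1 CPM in any kidney were fitted in R 4.3.3 with edgeR 4.0.16 (TMM, 1 model of 4 groups, quasi-likelihood tests). Benjamini-Hochberg adjustment was run jointly on the male and the female tests, and separately for the interaction and for Ctrlm against Ctrlf, with a threshold of 0.05. The study used voom, which was run here as an alternative in limma 3.58.1 beside DESeq2 1.42.0. Intervals are 95% confidence intervals of the quasi-likelihood fit. Adjusted p without another name are edgeR's. Scores of a cell type are the mean log2 CPM of its markers, with a prior count of 2.

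The members, gene lists, markers and motifs were chosen with earlier results of these data known. Named genes are the 6 nearest to Pex5 on each side, members past the threshold between genotypes or in the interaction, the 6 largest called differences between Ctrlm and Ctrlf, and the 4 members of each list with the highest mean CPM. Same-numbered kidneys come from different mice and were not paired, and kidneys of a group differed by more than counting noise (chi-square per degree of freedom 9.24 to 91.1 over 60 pairs). Scripts were checked on simulated data. Counts were tabulated in Python 3.11.15 (pandas 2.3.3) and drawn in matplotlib 3.10.9. The other alternatives were RLE normalization, 2 filters on low counts, a fit of each sex by itself, an adjustment for each sex by itself, a replicate block, 2 marker scores as covariates, other windows, and each kidney left out in turn. In addition, 2 sets of kidneys were left out after the data had been seen.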

Additional observations from a re-analysis of the deposited data

Results flagged for a closer look

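Single kidneys stood apart from the other 5 of their group in 37 of 226 groups of 6 examined for 57 genes, by a gap to the nearest kidney that exceeded Dixon's critical value. The critical value is set for 1 in 20 groups of independent, normally distributed values. The same kidneys recur for every gene and CPM need not be normal, so this rate is not a chance expectation here. In cKOf 6, the kidney with the smallest share of reads outside genes, the genes apart were Necap1 (27.8 CPM), Tpi1 (447 CPM), Atp6v1e1 (120.9 CPM), Phb2 (187 CPM), Mrpl51 (97.6 CPM) and Cops7a (74.1 CPM). In Ctrlm 5 they were Tpi1 (609 CPM), Bcl2l13 (42.1 CPM) and Zfp384 (27.4 CPM), and in Ctrlf 4 Tnfrsf1a (64.1 CPM), Fkbp4 (161 CPM) and Cops7a (74.9 CPM). In Ctrlf 5 they were Chd4 (216 CPM), Emg1 (32.1 CPM) and Cd9 (83.3 CPM).

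In Ctrlf 1, the kidney with the highest macrophage marker levels, they were C3ar1 (4.57 CPM), Lpcat3 (87.6 CPM) and Tapbpl (41.2 CPM), and in Ctrlm 6 the myeloid receptors C3ar1 (5.94 CPM) and Clec4a1 (2.43 CPM). In cKOm 4, the cKOm kidney with high hepatocyte transcripts, they were Mug-ps1 (0.831 CPM), Mug2 (0.293 CPM) and Mug1 (12.8 CPM). In Ctrlm 1 they were Mug2 (2.03 CPM) and Ncapd2 (6.39 CPM), in Ctrlf 6 Clstn3 (1.56 CPM) and Mug2 (0.0867 CPM), and in cKOf 5 Mug1 (0.918 CPM) and Mug2 (0.120 CPM). Of these, the values of Mug2 in Ctrlf 6 and cKOf 5 are 2 and 3 reads.

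The other kidneys apart were cKOf 1 for Eno2 (4.77 CPM) and Kcna1 (0.487 CPM), cKOf 4 for Rhno1 (20.3 CPM), cKOm 1 for Fkbp4 (141 CPM), cKOm 2 for Kcna1 (0.622 CPM), cKOm 5 for Mlf2 (159 CPM), cKOm 6 for Ptpn6 (30.2 CPM) and Ctrlm 4 for Usp5 (55.65 CPM). A difference between the sexes was found for Pzp, whose log2 ratio of cKO against Ctrl differed by -3.55 (male minus female) (edgeR interaction, adjusted p = 0.00135).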

How the results depend on the processing

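The 6 male calls remained with limma-voom, DESeq2, RLE normalization, both filters, each sex alone, the macrophage score and the replicate block, and with each kidney left out. The counts with each kidney left out were 6 to 8 in males, 0 to 0 in females, 1 to 2 for the interaction and 11 to 16 between controls, with 2 for the interaction without Ctrlf 4 or Ctrlm 2. With the hepatocyte score as a covariate 4 members passed in males, 3 of them among the 6 (Pzp, Tulp3 and M6pr) and the fourth Clec4a3, and 6 between controls instead of 14. DESeq2 gave 8 male calls (the 6, Clec4a3 and Fkbp4) and adjustment within each sex 9 (those and Bcl2l13). The share of all tested genes called in males under these settings is not given here, so these counts show no increase particular to the members. Without the 5 kidneys of high hepatocyte score, chosen after the data had been seen, 4 passed in males (Pzp, Tpi1, Fkbp4 and Ing4, the last named after its value was seen), 2 in the interaction and 9 between controls, 5 of them among the 14. That fit kept Ctrlm 5 and 6 alone as male controls. The cause of these changes was not tested. Tulp3 then was at -0.28 (adjusted p = 0.339), M6pr at -0.31 (0.0542), Bid at -0.36 (0.224) and Lpcat3 at 0.38 (0.215). Without the 3 kidneys with the fewest reads outside genes, also chosen after the data had been seen, the 6 male calls remained. In females, 1 member passed with the macrophage score as a covariate (Lpcat3), and DESeq2 gave 2 members for the interaction (Pzp and Fkbp4). In the male test, limits of 2 Mb and of 1 Mb around Pex5 left 2 of 55 (3.64%) and 2 of 40 members (5%), against 9.05% of all tested genes. Between controls these limits left 5 and 5 members, where 16.8% of all tested genes passed. By the 5' end as the start, Pzp fell outside the window, and 5 members passed in males. The median log2 ratios with RLE were -0.06 in males and -0.05 in females.

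Between controls, the values of Mug1 and Mug2 changed sign, to -1.83 and -0.96 with the hepatocyte score as a covariate and to -0.0005 and -1.82 without the 5 kidneys. Over all tested genes, the hepatocyte score lowered the male calls from 1456 to 853 and those between controls from 2707 to 1617, and leaving out the 5 kidneys gave 593 and 1554. Female calls over all genes were 137, and 43 with adjustment within each sex or 83 without the 5 kidneys. DESeq2 gave 574 interaction calls in place of 372. Without Ctrlm 1 the adjusted p of Mug2 was 0.0554, and without Ctrlf 4 that of A2m was 0.0538. That of M6pr was 0.0505 to 0.0599 without Ctrlf 1 or 6 or Ctrlm 1 or 5, and that of C1rl 0.0510 to 0.168 without Ctrlf 2, 5 or 6, Ctrlm 2, 3 or 6, cKOf 2 or 5 or cKOm 2 or 3. Without the 5 kidneys it was 0.159 for Slc6a13 and 0.274 for Mug-ps1. Of 11 called differences between controls that were followed, 3 kept their call in every alternative. Single kidneys also changed the calls of Clec4a3 (adjusted p = 0.0297 without Ctrlm 4 and 0.0473 without cKOm 2) and Fkbp4 (0.0244, 0.0498 and 0.0410 without Ctrlm 2, Ctrlm 3 and Ctrlf 4) in males. Without cKOm 4, Mug1 and Mug2 passed in males (adjusted p = 0.0149 and 0.0377), and without cKOf 6 Bcl2l13 did (adjusted p = 0.0354). The replicate numbers did not pair the kidneys. Deviations of same-numbered kidneys correlated at -0.064 to 0.068 in males and -0.24 to 0.11 in females, and 0 of 6 correlated best with their own number in either sex. With the replicate block, 6 members passed in males, 0 in females, 1 in the interaction and 11 between controls. Depth limited genes under 1 CPM, such as Clstn3.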
